A study of Mus musculus with 6 samples.

Results

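The 40 genes described here encode the machinery of mitosis and cytokinesis: the cyclins and kinases that start mitosis, the spindle checkpoint, the kinetochore, the spindle motors, the central spindle and the proteins that shape mitotic chromosomes. They were taken from a list of gene names and matched to the gene names of the deposited array table, or, where no gene name matched, to its synonyms. Of the 40 genes, 39 were found, with 77 of the table's 45281 probes. Cdk1 was found as a synonym of an older name, and Nuf2, a kinetochore subunit, was not matched. Of the 39 genes, 31 had a probe that passed the detection filter, which asks for a detection p-value below 0.05 on 2 or more arrays, and were tested, among 12632 genes in all.

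The study measured total RNA of 3 mouse pluripotent stem cell lines on Illumina bead arrays, with 2 biological replicates per line and 1 array per replicate. CL25 is an induced pluripotent stem (iPS) clone that the labels call cl2.5 of PB-Oct4.2A.cherry (low), marked iPS-/-. O2ACH iPS is labelled PB-Oct4.2A.cherry iPS-/-, and ESC is an embryonic stem cell line. All 3 are of the B6 background. All were grown in serum-replacement medium with LIF, 3 µM CHIR99021 (a GSK3 inhibitor) and 1 µM PD0325901 (a MEK inhibitor). The labels do not say which gene the -/- sign stands for or what drives the transgene. There is 1 line for each type of cell, and CL25 is 1 clone, so a difference between lines cannot be told apart from a difference between kinds of cell. The p-values rest on the spread between 2 samples of a line, and the 3 comparisons share arrays.

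Cells enter mitosis when cyclin B and Cdk1 become active. Polo-like and Aurora kinases then help to build the spindle, the checkpoint holds anaphase until every kinetochore is attached, and the anaphase-promoting complex releases separase to part the sister chromatids. Transcription of most of these genes peaks in G2 and M phase, through promoter elements bound by the DREAM complex, B-Myb and FoxM1. Mouse pluripotent stem cells divide fast with a short G1 phase, and their cultures hold many cycling cells. In RNA of a whole culture, fewer cells in mitosis and less RNA per mitotic cell cannot be told apart.

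The arrays were alike in depth of signal. Between 35.9% and 37.5% of probes were detected on an array, the median intensity lay between 87.28 and 95.98, and log2 values over genes correlated at 0.981 to 0.989 within a line and at 0.956 to 0.981 between lines. All 10 pluripotency markers were detected on both arrays of every line. Their summed intensity was 84550 to 97260 in CL25, 83510 to 91510 in O2ACH iPS and 95030 to 98410 in ESC. Pou5f1, which encodes Oct4, fell in every comparison. The log2 difference was -2.07 in CL25 against O2ACH iPS, -3.27 in CL25 against ESC and -1.20 in O2ACH iPS against ESC (SE 0.17, limma adjusted p = 0.00416, 0.00061 and 0.0302). The position of the Pou5f1 probes in the transcript is not given in the sources used here. Whether they also read RNA of the Oct4 transgene was not tested. Of 6 primitive endoderm markers, Gata6 and Dab2 were higher in CL25 than in both other lines (limma adjusted p = 0.0145 and 0.0105 against ESC, and 0.0324 and 0.012 against O2ACH iPS). Sox7, the other marker of this list that was tested, differed by -0.23 in CL25 against O2ACH iPS and -0.02 against ESC. It was detected on both arrays of O2ACH iPS and of ESC but not on both of CL25. Gata4, Sox17 and Foxa2 were not detected on both arrays of any line. The summed intensity of the primitive endoderm list was 1689 to 2178 in CL25, 1252 to 1317 in O2ACH iPS and 1221 to 1329 in ESC. That of 6 trophectoderm markers was 6702 to 7406 in CL25, 2851 to 4036 in O2ACH iPS and 3155 to 4064 in ESC. Cdx2, Eomes and Elf5 were not detected on both arrays of any line. None of the 5 trophectoderm markers tested was called in either CL25 comparison. Against O2ACH iPS 3 were positive and 2 negative in CL25, and against ESC 4 were positive and 1 negative. Of the trophectoderm list, Gata3 was called higher in O2ACH iPS than in ESC (2.00 ± 0.31, limma adjusted p = 0.0402), though it was not detected on both ESC arrays. Of the 5 trophectoderm markers tested in that comparison, 2 were positive and 3 negative, with a median of -0.03. Tfap2c was detected on both arrays of every line, and Krt7 on both arrays of CL25 only. Of 9 fibroblast markers 1, 2 and 2 were detected on both arrays of CL25, O2ACH iPS and ESC, and of 5 neural markers 1, 0 and 1. The fibroblast marker in CL25 was Thy1, and those in the other lines were Col1a2 and Acta2. The widest fibroblast difference was that of Acta2 (-3.83 ± 0.86 in CL25 against ESC, limma adjusted p = 0.0553), which was not detected on both CL25 arrays. Of the 4 fibroblast markers tested there, 2 were negative and 2 positive (up to 0.91), with a median of 0.00. The part of these other cell types in the values of the mitosis genes was not tested.

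The mitosis genes differed little between the 3 lines. None of the 31 tested genes passed the test (limma, Benjamini-Hochberg adjusted p under 0.05 over all genes) in any comparison. Over all genes, 2.24% passed in CL25 against O2ACH iPS, 4.17% in CL25 against ESC and 0.807% in O2ACH iPS against ESC. At these shares few of 31 genes would be called in any case. Before adjustment, 1 gene had a p under 0.05 in CL25 against O2ACH iPS (Kif4, where 16.2% of all genes did), 6 in CL25 against ESC (Mki67, Mad2l1, Top2a, Cdc25b, Ccnb1 and Espl1, against 19.5%) and 3 in O2ACH iPS against ESC (Mad2l1, Mki67 and Top2a, against 14.1%). All of these 10 differences were negative, that is, lower in the first-named line. Over all genes, 1014, 1276 and 951 of 12632 were lower with an unadjusted limma p under 0.05 in the 3 comparisons. The Cdc25b probe used was undetected in CL25 and passed the filter only through the other lines. Without Cdc25b, CL25 against ESC has 5. The smallest adjusted p was 0.0525, for Mki67 in CL25 against ESC, and under 5 of 16 other settings Mki67 was called there.

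The differences were also small in size. No mitosis gene differed by more than 1 on the log2 scale in any comparison. Of all genes tested, 682 (5.40%), 827 (6.55%) and 485 (3.84%) did in CL25 against O2ACH iPS, CL25 against ESC and O2ACH iPS against ESC. At these shares few of 31 genes would differ by more than 1 in any case. The median absolute difference of the mitosis genes was 0.139, 0.214 and 0.154, and that of all genes 0.224, 0.242 and 0.213. The 95% interval of the difference lay wholly within 2-fold for 29, 27 and 27 of the 31 genes. The genes with wider or more distant intervals were Cdc25b and Pttg1 in the first comparison, Cdc25b, Mad2l1, Mki67 and Pttg1 in the second, and Kif20a, Mad2l1, Mki67 and Pttg1 in the third. Half-widths of the intervals ran from 0.398 to 0.926 with a median of 0.448, so a smaller difference could not be resolved with 2 arrays per line.

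**Figure D1:**
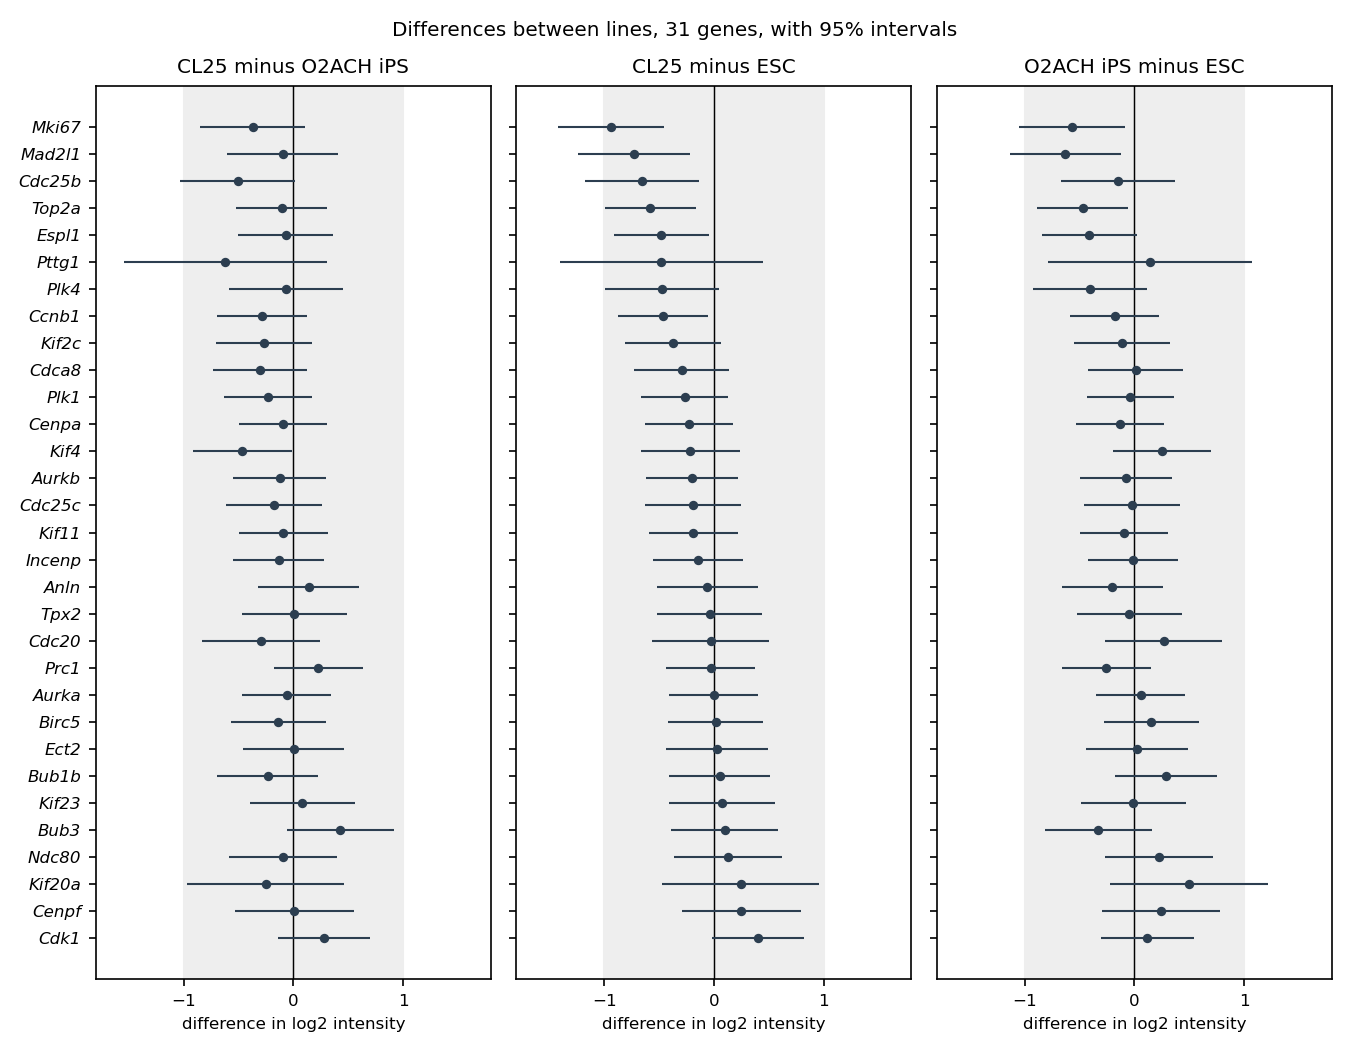
Each point is the fitted difference in log2 intensity of 1 of the 31 tested genes, with its 95% interval, in the comparisons CL25 minus O2ACH iPS, CL25 minus ESC and O2ACH iPS minus ESC, and the grey band marks differences within 2-fold. The genes are ordered by CL25 minus ESC, from Mki67 at -0.94 to Cdk1 at 0.40, and 29, 27 and 27 intervals lie wholly inside the band.

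In CL25 the signs leaned to the negative side. The difference was negative for 23 of 31 genes (74.2%) against O2ACH iPS, where 52.2% of all genes were negative, and for 22 (71.0%) against ESC, where 52.5% were. It was negative for 19 (61.3%) in O2ACH iPS against ESC, where 50.3% of all genes were. The median difference of the mitosis genes was -0.19 in CL25 against ESC (all genes -0.02), or -0.07 over the 39 genes when no detection filter was set (all genes 0.00). It was -0.04 in O2ACH iPS against ESC (all genes 0.00), or -0.16 with arrays centred on their medians (all genes -0.09). In CL25 against O2ACH iPS it was -0.11 (all genes -0.02), but 0.0058 with that centring in place of quantile normalisation, with all genes at 0.0698. After normalisation both CL25 arrays lay below both ESC arrays for 17 genes (54.8%, against 27.0% of all genes) and above them for 1, Cdk1 (3.23%, against 23.5%). Both CL25 arrays lay below both O2ACH iPS arrays for 12 genes (38.7%, against 25.4%) and above them for Bub3, Cdk1 and Prc1 (9.68%, against 23.4%). Both O2ACH iPS arrays lay below both ESC arrays for 11 genes (35.5%, against 21.3%) and above them for Kif4 (3.23%, against 20.9%). Over the 29 genes detected on all 6 arrays, which leave out Cdc25b and Kif20a, CL25 lay below ESC for 16 and below O2ACH iPS for 11. Genes of one process share the arrays' errors, so these shares describe the 6 arrays and have no test.

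By line mean, 14 of the 31 genes were lowest in CL25, intermediate in O2ACH iPS and highest in ESC, an order that 20.1% of all tested genes took. Line orders were not counted under other scalings. With arrays centred on their medians, the median difference of CL25 against O2ACH iPS changed sign, as did that of all genes. In the other 17 genes the lines took the 5 other orders, with 2 to 5 genes each. The median log2 level over the 31 genes was 9.51 and 9.38 on the CL25 arrays, 9.79 and 9.60 on the O2ACH iPS arrays, and 9.53 and 9.76 on the ESC arrays. Both CL25 medians were thus below the other 4, which overlapped between the O2ACH iPS and ESC lines.

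**Figure D2:**
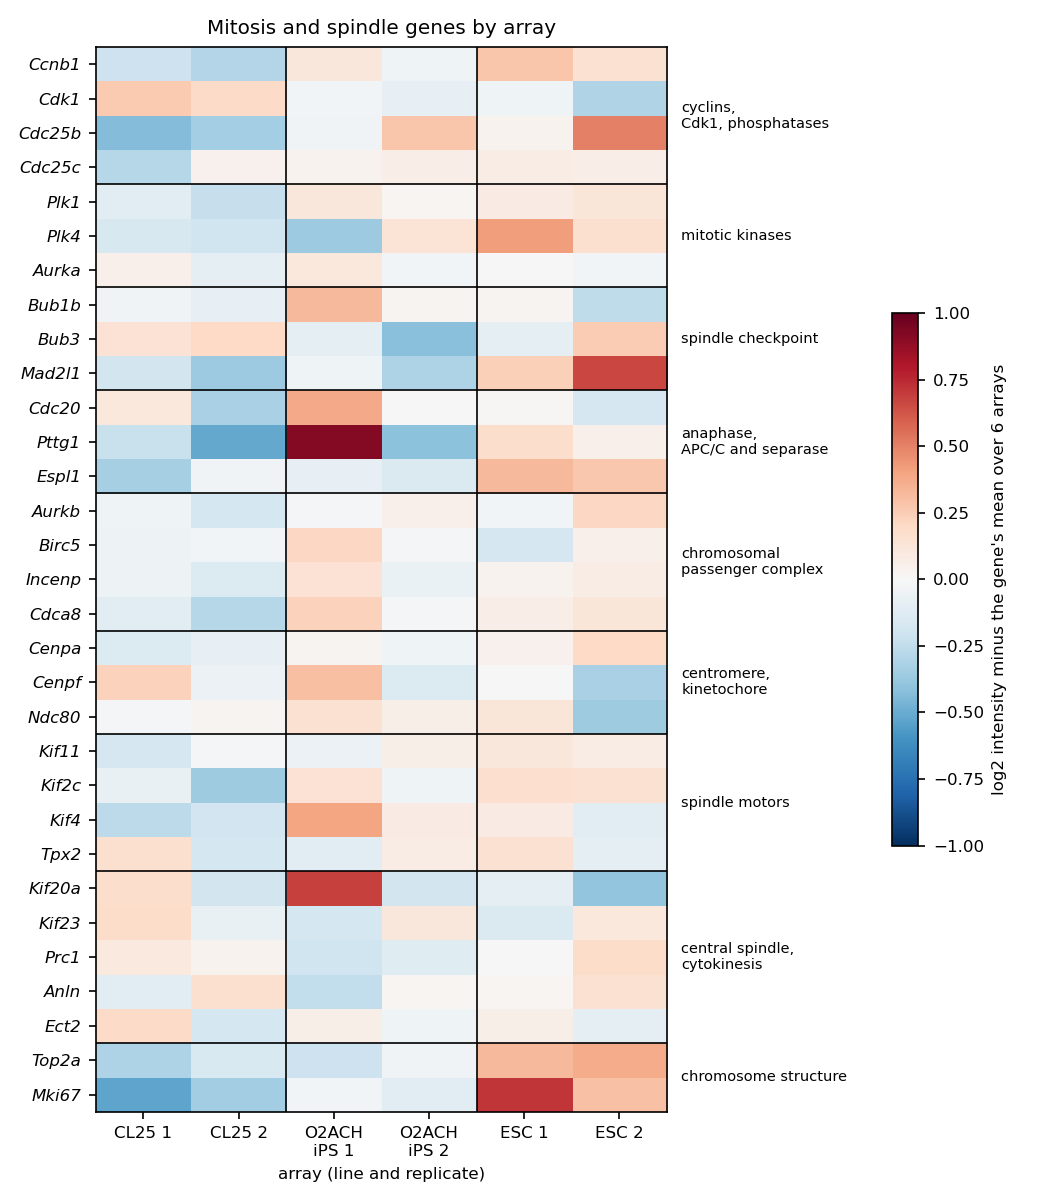
Rows are the 31 tested genes, grouped by role, and columns are the 6 arrays, with CL25 on the left, O2ACH iPS in the middle and ESC on the right. Colour gives the log2 intensity minus the gene's mean over the 6 arrays, red above and blue below it. Most cells are pale, Mki67 is bluest in CL25 and reddest in ESC, and Pttg1 is reddest on the first O2ACH iPS array only.

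Mki67 and Top2a, the pair of genes that shape mitotic chromosomes, stood lowest in CL25 against ESC as a group, with a median difference of -0.76. Mki67 encodes Ki-67, which coats mitotic chromosomes and is the usual marker of cycling cells. Its detected probe had deposited intensities of 325 and 344 in CL25, 367 and 394 in O2ACH iPS, and 633 and 527 in ESC. The lines did not overlap, with CL25 lowest and ESC highest. The difference was -0.94 ± 0.20 (log2, SE; 1.92-fold lower) in CL25 against ESC, with a 95% interval from -1.42 to -0.46, and limma's adjusted p of 0.0525 just missed the threshold. The adjusted p ran from 0.0378 to 0.248 over 16 other settings and was under 0.05 in 5 of them. The difference was -0.37 ± 0.20 in CL25 against O2ACH iPS (limma adjusted p = 0.444) and -0.57 ± 0.20 in O2ACH iPS against ESC (adjusted p = 0.277). The gene's other probes were not detected on any array.

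Top2a encodes topoisomerase II alpha, which untangles sister chromatids and compacts mitotic chromosomes. Its probe read 1651 and 1790 in CL25, 1504 and 1887 in O2ACH iPS, and 2330 and 2565 in ESC. Both ESC arrays were above the other 4, and the deposited values of CL25 lay within the range of O2ACH iPS. After normalisation CL25 and O2ACH iPS overlapped. The difference was -0.58 ± 0.18 in CL25 against ESC and -0.47 ± 0.18 in O2ACH iPS against ESC, and neither passed (limma adjusted p = 0.127 and 0.290). A dimmer probe of Top2a, detected on all 6 arrays, gave -0.44 and -0.66 in these comparisons. Another, detected on 2 arrays only, gave 0.30 and 0.17.

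Promoters are shown with elements known from cell cycle promoters marked. They are those of the 3 genes with the smallest limma p in CL25 against ESC (Mki67, Mad2l1 and Top2a) and of Cdk1. Cdk1 had the most positive difference there. The sequences are RefSeq's on GRCm38.p6, from 250 bases before the gene start to 50 bases after it, 5′ to 3′ on the gene's strand. Capitals mark the cell cycle genes homology element, searched as TTTGAA or TTCGAA, and the CCAAT box, searched as CCAAT, each on both strands. The windows are chr7:135716330-135716629 on the minus strand for Mki67, chr11:99024140-99024439 on the minus strand for Top2a, chr6:66534971-66535270 on the plus strand for Mad2l1, and chr10:69352863-69353162 on the minus strand for Cdk1.
Mki67: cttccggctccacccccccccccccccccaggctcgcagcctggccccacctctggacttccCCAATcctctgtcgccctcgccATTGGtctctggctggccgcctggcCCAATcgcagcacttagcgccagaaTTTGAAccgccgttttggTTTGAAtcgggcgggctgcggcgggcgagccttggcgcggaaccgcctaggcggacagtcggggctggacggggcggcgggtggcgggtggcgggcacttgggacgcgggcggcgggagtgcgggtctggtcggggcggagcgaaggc
Top2a: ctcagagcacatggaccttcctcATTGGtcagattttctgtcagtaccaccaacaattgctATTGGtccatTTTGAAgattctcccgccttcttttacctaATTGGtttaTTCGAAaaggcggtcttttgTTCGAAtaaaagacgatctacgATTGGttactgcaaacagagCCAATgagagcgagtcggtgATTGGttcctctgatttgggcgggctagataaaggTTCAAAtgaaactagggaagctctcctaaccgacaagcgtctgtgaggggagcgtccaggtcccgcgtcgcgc
Mad2l1: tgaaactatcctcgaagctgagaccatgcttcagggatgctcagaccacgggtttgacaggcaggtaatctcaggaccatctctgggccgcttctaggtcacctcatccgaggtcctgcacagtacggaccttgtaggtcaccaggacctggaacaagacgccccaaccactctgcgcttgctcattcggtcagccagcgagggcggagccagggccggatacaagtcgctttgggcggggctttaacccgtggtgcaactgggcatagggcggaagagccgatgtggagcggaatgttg
Cdk1: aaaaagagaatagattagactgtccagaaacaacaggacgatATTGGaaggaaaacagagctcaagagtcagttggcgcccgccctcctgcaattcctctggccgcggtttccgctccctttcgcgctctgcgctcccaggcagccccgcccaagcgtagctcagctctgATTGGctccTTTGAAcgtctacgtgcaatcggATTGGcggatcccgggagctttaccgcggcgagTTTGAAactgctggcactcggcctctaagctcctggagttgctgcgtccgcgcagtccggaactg
Mki67 and Cdk1 each hold 2 TTTGAA elements and 3 CCAAT boxes. Top2a holds 2 TTTGAA and 2 TTCGAA elements with 6 CCAAT boxes, and Mad2l1 holds none in this window. Of the 40 genes, 34 had a window in the table. A homology element was found in 26 of these 34 (76.5%), against 19.4% of the windows of 27025 genes. A CCAAT box was likewise found in 26 (76.5%, against 37.9%), 2 or more CCAAT boxes in 17 (against 12.2% of all windows), and both elements in 23 (67.6%, against 7.70%). Mki67 and Cdk1, which lay at opposite ends of CL25 against ESC, hold the same numbers of both elements.

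Of the cyclins, Cdk1 and its phosphatases, 4 of 6 were tested and none was called. Their median difference was -0.23 in CL25 against O2ACH iPS, -0.33 in CL25 against ESC and -0.08 in O2ACH iPS against ESC. Ccnb1, on chromosome 13, encodes cyclin B1, the partner of Cdk1 at mitotic entry. Its probe read 3009 and 2737 in CL25, 3129 and 3122 in O2ACH iPS, and 3781 and 3752 in ESC. The lines were ordered as for Mki67, without overlap. The difference in CL25 was -0.47 ± 0.17 against ESC and -0.28 ± 0.17 against O2ACH iPS (limma adjusted p = 0.197 and 0.490), and that of O2ACH iPS against ESC was -0.18 ± 0.17 (adjusted p = 0.703). A second detected probe of Ccnb1 gave -0.27, -0.26 and -0.01 in the same order.

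Cdk1, the kinase of mitotic entry, ran the other way from its cyclin. Its probe read 3685 and 3357 in CL25, 2539 and 2706 in O2ACH iPS, and 2691 and 2462 in ESC. Both CL25 arrays were above the other 4, while O2ACH iPS and ESC overlapped. The difference in CL25 was 0.40 ± 0.18 against ESC and 0.28 ± 0.18 against O2ACH iPS, and neither passed (limma adjusted p = 0.282 and 0.513). In O2ACH iPS against ESC it was 0.12 ± 0.18 (adjusted p = 0.831). After normalisation Cdk1 was the only tested mitosis gene with both CL25 arrays above those of both other lines.

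Cdc25b and Cdc25c encode phosphatases that activate Cdk1. The brighter Cdc25b probe read 98.0 and 95.3 in CL25, where it was not detected on either array, 99.8 and 115 in O2ACH iPS, and 103 and 125 in ESC. The probe thus passed the filter only through the lines where it is higher, and its level in CL25 is only bounded by the background. The fitted differences of CL25 against O2ACH iPS and ESC, -0.51 ± 0.22 and -0.66 ± 0.22, did not pass (limma adjusted p = 0.321 and 0.162) and support no direction. The other detected Cdc25b probe gave -0.10 against O2ACH iPS and 0.33 against ESC, so the direction against ESC rests on the choice of probe. That probe was detected on both arrays of CL25 and of O2ACH iPS but on neither ESC array. Cdc25c differed by -0.17, -0.19 and -0.02 in the 3 comparisons. Its other detected probe gave -0.41, -0.26 and 0.15. Ccna2 and Ccnb2, which encode cyclins A2 and B2, had no probe that passed the filter.

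Of the mitotic kinases, Plk1, Plk4 and Aurka were tested, none was called, and their differences in CL25 were negative in both comparisons. Plk1, the polo-like kinase of mitotic entry and spindle assembly, read 2764 and 2430 in CL25, 2645 and 2748 in O2ACH iPS, and 2817 and 3066 in ESC. The deposited values of CL25 and O2ACH iPS overlapped and ESC was highest. The difference was -0.27 ± 0.17 in CL25 against ESC and -0.23 ± 0.17 in CL25 against O2ACH iPS (limma adjusted p = 0.457 and 0.578). Plk4, which starts centriole duplication, differed by -0.47 ± 0.22 in CL25 against ESC and by -0.40 ± 0.22 in O2ACH iPS against ESC. Aurka, the spindle pole kinase, differed by at most 0.06 in size in all 3 comparisons. Nek2, a centrosome kinase, was not tested.

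**Figure D3:**
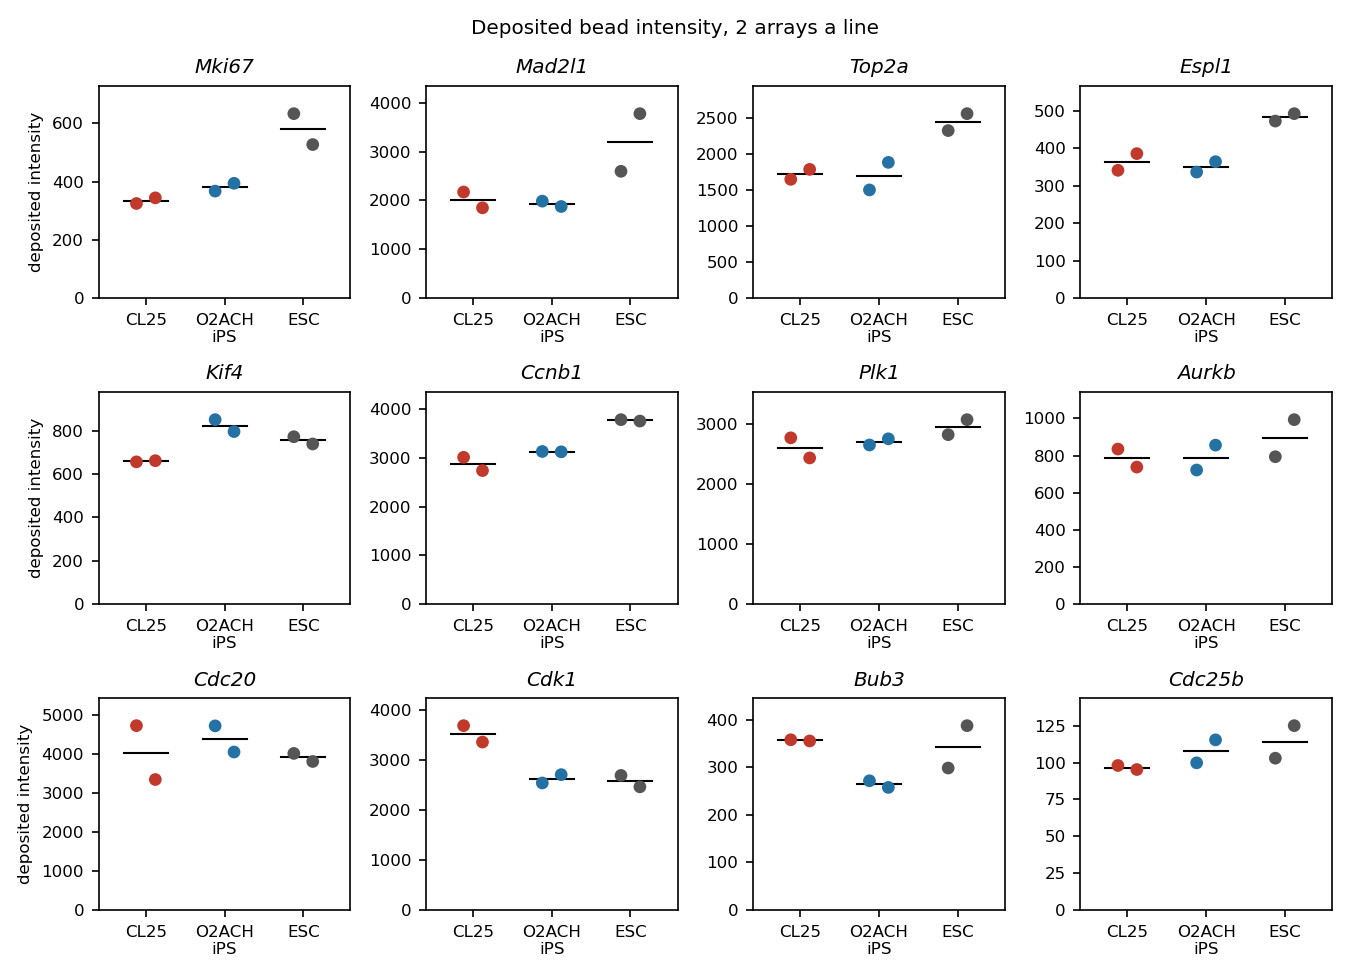
Deposited bead intensity of 12 genes, linear axis from 0, with 1 point per array and a line at the mean of the 2 arrays, for CL25, O2ACH iPS and ESC from left to right. ESC is above the other lines without overlap for Mki67, Mad2l1, Top2a, Espl1, Ccnb1 and Plk1, CL25 is highest for Cdk1, and O2ACH iPS is highest for Kif4.

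Of the spindle checkpoint genes, Mad2l1, Bub3 and Bub1b were tested and none was called. Mad2l1, on chromosome 6, encodes Mad2, which binds and inhibits Cdc20 at unattached kinetochores. Its brighter probe read 2174 and 1850 in CL25, 1987 and 1877 in O2ACH iPS, and 2599 and 3781 in ESC. Both ESC arrays were above the other 4 but lay far apart, and the deposited values of O2ACH iPS lay within the range of CL25. After normalisation O2ACH iPS and CL25 overlapped. The difference was -0.73 ± 0.22 in CL25 against ESC (1.65-fold lower) and -0.63 ± 0.22 in O2ACH iPS against ESC (1.55-fold lower), and neither passed (limma adjusted p = 0.12 and 0.257). The gene's other detected probe gave -0.76 and -0.86.

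Bub3, a checkpoint protein that brings its partners to kinetochores, read 358 and 355 in CL25, 272 and 258 in O2ACH iPS, and 298 and 387 in ESC. In these deposited values O2ACH iPS was lowest, and CL25 lay within the range of ESC. After normalisation O2ACH iPS and ESC overlapped. The difference was 0.43 ± 0.21 in CL25 against O2ACH iPS (limma adjusted p = 0.377), and 0.10 ± 0.21 in CL25 against ESC. Bub1b, which encodes the checkpoint protein BubR1, differed by -0.24, 0.05 and 0.29 in the 3 comparisons. A dimmer probe of Bub1b, detected on all 6 arrays, gave -0.34, -0.31 and 0.03. The sign for Bub1b in CL25 against ESC thus rests on the choice of probe. Bub1 and Ttk, the checkpoint kinases, were not tested.

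Of the genes of anaphase onset, Cdc20, Espl1 and Pttg1 were tested and none was called. Espl1 encodes separase, the protease that cuts cohesin. It read 341 and 386 in CL25, 337 and 364 in O2ACH iPS, and 473 and 493 in ESC. Both ESC arrays were above the other 4, among which the lines overlapped. The difference was -0.48 ± 0.18 in CL25 against ESC and -0.41 ± 0.18 in O2ACH iPS against ESC (limma adjusted p = 0.208 and 0.376).

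Cdc20, the activator of the anaphase-promoting complex, read 4718 and 3339 in CL25, 4712 and 4043 in O2ACH iPS, and 4007 and 3801 in ESC. All 3 lines overlapped, and the gap between the CL25 arrays, 0.43 after normalisation, was the largest of any tested mitosis gene in that line. The difference was -0.03 ± 0.23 in CL25 against ESC and -0.30 ± 0.23 in CL25 against O2ACH iPS (limma adjusted p = 0.969 and 0.595). Dimmer probes of Cdc20 gave 0.32, 0.07 and 0.18 in CL25 against ESC, and 0.06, -0.18 and -0.02 in CL25 against O2ACH iPS. Pttg1 encodes securin, the inhibitor of separase. Its replicates in O2ACH iPS differed by 1.33 on the log2 scale, the widest gap of the list, and its SE of 0.39 was the largest, so its differences (-0.62, -0.48 and 0.14) were not resolved. Ube2c, the E2 enzyme of the anaphase-promoting complex, was not tested.

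The chromosomal passenger complex corrects faulty attachments and was tested in all 4 genes, with none called. Aurkb, its kinase, read 835 and 738 in CL25, 722 and 856 in O2ACH iPS, and 794 and 993 in ESC, and the deposited values of the lines overlapped. The difference was -0.20 ± 0.18 in CL25 against ESC and -0.12 ± 0.18 in CL25 against O2ACH iPS (limma adjusted p = 0.617 and 0.798). Birc5, Incenp and Cdca8, which encode survivin, the scaffold and borealin, differed by between -0.30 and 0.15 over all 3 comparisons. All 4 genes were negative in CL25 against O2ACH iPS, with a median of -0.14.

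At the centromere and kinetochore, Cenpa, Cenpf and Ndc80 were tested and none was called. Cenpa encodes the histone H3 variant that marks centromeres and differed by -0.10, -0.23 and -0.13 in the 3 comparisons. Ndc80, which binds microtubules at the kinetochore, differed by -0.10, 0.13 and 0.22. Cenpf, a large kinetochore and spindle protein, differed by 0.01, 0.25 and 0.24. Its dimmer probes gave -0.17 and -0.10 in O2ACH iPS against ESC, so the sign there rests on the choice of probe. Cenpe, a kinetochore motor, was not tested.

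Of the spindle motors and their partners, Kif11, Kif2c, Kif4 and Tpx2 were tested and none was called. Kif4, on chromosome X, encodes a chromokinesin that acts on chromosome arms and at the central spindle. Its brightest probe read 656 and 661 in CL25, 850 and 795 in O2ACH iPS, and 772 and 738 in ESC. The lines did not overlap, with CL25 lowest and O2ACH iPS highest. The difference was -0.47 ± 0.19 in CL25 against O2ACH iPS, with a 95% interval from -0.91 to -0.02, and -0.21 ± 0.19 in CL25 against ESC, and neither passed (limma adjusted p = 0.293 and 0.613). The other 2 Kif4 probes gave -0.68 and -0.59 against O2ACH iPS, and -0.57 and -0.53 against ESC, so all 3 probes had the same sign in CL25.

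Kif11, the motor that separates spindle poles, differed by -0.09, -0.19 and -0.10 in the 3 comparisons. Kif2c, which depolymerises microtubules at centromeres, differed by -0.27, -0.38 and -0.11. Tpx2, the activator of Aurora A on the spindle, differed by 0.01, -0.04 and -0.04. All 4 genes of the role were negative in CL25 against ESC, with a median of -0.20.

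The central spindle and cytokinesis genes had the median nearest to 0 of all roles in CL25 against ESC. Of 6 genes, 5 were tested, none was called, and the differences ran from -0.06 to 0.25 with a median of 0.03. Prc1, which bundles the microtubules of the central spindle, was above O2ACH iPS on both CL25 arrays, with a difference of 0.23 ± 0.17. Anln (anillin, of the contractile ring) and Ect2 (the activator of RhoA) differed by between -0.20 and 0.14 with the probes used. A dimmer probe of Anln, detected on all 6 arrays, gave 0.18 in CL25 against O2ACH iPS, 0.48 in CL25 against ESC and 0.30 in O2ACH iPS against ESC. The sign for Anln against ESC thus rests on the choice of probe. Kif20a, a central spindle motor, was detected on few arrays and differed by -0.25, 0.25 and 0.50 with an SE of 0.31. Racgap1, the partner of Kif23, was not tested.

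Kif23, the motor of the centralspindlin complex, differed by 0.08, 0.07 and -0.01. One more probe carries Kif23's older name, KNSL5, and lies outside the matching rule. It read 876 and 723 in CL25, 494 and 583 in O2ACH iPS, and 401 and 440 in ESC, with CL25 highest and no overlap. It was called higher in CL25 than in ESC (1.06 ± 0.18, 2.08-fold, limma adjusted p = 0.0224), and differed by 0.51 ± 0.18 and 0.55 ± 0.18 in the comparisons with O2ACH iPS (adjusted p = 0.216 and 0.242). The 3 probes under the current name that passed the filter gave 0.07, -0.06 and -0.14 in CL25 against ESC, and the position of the older probe in the transcript is not given in the sources used here. Further older names (of Nuf2, Kif11 and Plk4) had undetected probes.

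The 8 genes without a test (Bub1, Ccna2, Ccnb2, Cenpe, Nek2, Racgap1, Ttk and Ube2c) had 13 probes with intensities between 66.4 and 110.7, each detected on at most 1 array. None of these probes was detected on both arrays of a line. Of the 31 probes used for testing, 29 were detected on all 6 arrays.

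Probes of one gene did not always point the same way. Of the 13 genes with several probes that passed the filter, the probes shared a sign in 9 in CL25 against O2ACH iPS, in 6 in CL25 against ESC and in 6 in O2ACH iPS against ESC. When each of the 51 probes was tested by itself, none was called in any comparison (over all probes 1.93%, 3.98% and 0.715% were), and the smallest limma adjusted p was 0.135, 0.0523 and 0.0925. Between the arrays of a line the median absolute difference of the mitosis genes was 0.149 in CL25, 0.187 in O2ACH iPS and 0.180 in ESC, below that of all genes (0.191, 0.238 and 0.252).

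**Figure D4:**
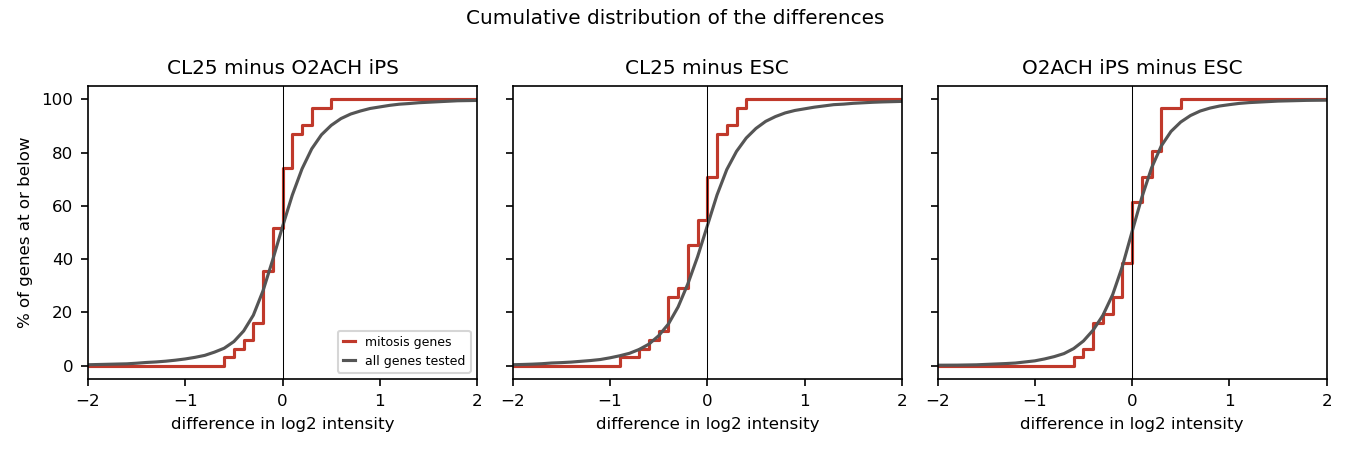
Each curve gives the percentage of genes with a log2 difference at or below the value on the horizontal axis, in steps of 0.1, for the 31 mitosis genes (red) and all 12632 tested genes (grey). In CL25 minus O2ACH iPS and CL25 minus ESC the red curve is at 74.2% and 71.0% at 0, where the grey curve is at 52.2% and 52.5%, and no mitosis gene lies beyond 1 in size.

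Other cell cycle genes were read against the same shares of all genes (2.24%, 4.17% and 0.807% called). Of 25 tested kinetochore and centromere genes, 11 genes of the anaphase-promoting complex, 14 of cohesin and condensin, 28 of DNA replication, 17 of G1 cyclins and CDK inhibitors and 16 regulators of mitotic transcription, none was called in any comparison. Their medians in CL25 against ESC were -0.08, 0.09, -0.26, 0.00, 0.07 and -0.24. Of 23 other spindle motors and microtubule proteins, 1 was called, Dlgap5, and the median was -0.21. In this list 6 genes were lower and 1 higher in CL25 than in ESC at an unadjusted p under 0.05 (19.5% of all genes in either direction). Both CL25 arrays lay below both ESC arrays for 12 of the 23 (27.0% of all genes). Among genes that were not called, Stag2, a cohesin subunit, differed by -0.89 ± 0.20 in CL25 against O2ACH iPS, and Cdc23, a subunit of the anaphase-promoting complex, by 1.08 ± 0.26 in CL25 against ESC (limma adjusted p = 0.0798 and 0.0709).

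Dlgap5, on chromosome 14, encodes HURP, which binds and stabilises spindle microtubules near chromosomes. Its probe read 161 and 138 in CL25, 136 and 172 in O2ACH iPS, and 347 and 412 in ESC. Both ESC arrays were above the other 4, and the deposited values of CL25 lay within the range of O2ACH iPS. After normalisation CL25 and O2ACH iPS overlapped. Dlgap5 fell in both comparisons with ESC, with a difference of -1.95 ± 0.21 in CL25 (3.87-fold lower, limma adjusted p = 0.00524) and of -1.76 ± 0.21 in O2ACH iPS (3.40-fold lower, adjusted p = 0.0167). In CL25 against O2ACH iPS the difference was -0.19 ± 0.21 (adjusted p = 0.729). The call in CL25 against ESC was lost without the second CL25 array (adjusted p = 0.0598). That in O2ACH iPS against ESC was lost without the first O2ACH iPS array (0.106), without the second ESC array (0.0903) and without the detection filter (0.0653).

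The genes outside the list whose values over the 6 arrays were most like the mean standardised profile of the 31 genes were Eras, Phf6 and Atic, with Pearson's r of 0.997, 0.997 and 0.994. These are the highest correlations among all tested genes, each over 6 arrays, given as a description. Eras, which encodes an embryonic stem cell Ras protein, read 281 and 155 in CL25, 587 and 327 in O2ACH iPS, and 663 and 691 in ESC. CL25 was lowest, and in both CL25 and O2ACH iPS the second array was lower than the first. The profile itself was -0.26 and -0.62 in CL25, 0.35 and -0.13 in O2ACH iPS, and 0.37 and 0.30 in ESC.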

How the data were processed

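RNA of 6 cultures, 2 of each of 3 lines, was hybridised to Illumina bead arrays. The deposited table holds, per the file headers, 2 columns an array for its 45281 probes: the mean intensity of a probe's beads, and a p-value of detection. The medians of the deposited intensity values differed between arrays, so they were not brought to one scale, and neither the labels nor the headers record a background correction. The deposited detection p-value moves in steps of 1 in 936, the number of negative controls. Per the labels, RNA was extracted with RNeasy and labelled with the TotalPrep-96 kit. For the array model and scanner software, the labels name none. A second table of the authors' values was not used, because its probe names match no probe column.

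The nec function of limma 3.58.1 (R 4.3.3) corrected the background (controls inferred from the detection p-values, offset 16), followed by log2 and quantile normalisation. Kept were 18175 probes detected (p below 0.05) on 2 or more arrays, and of these the brightest for each of 12632 genes. The offset shrinks the differences of dim genes. A linear model with 3 line means was fitted (3 residual and 4.27 prior degrees of freedom), with Benjamini-Hochberg adjustment over all genes and calls at 0.05. The code was tested on simulated data. Gene names other than the 40 were updated through RefSeq. The number of arrays limits the precision.

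The 40 genes, their roles and the other lists were chosen with earlier results of these data known. Array values are given for genes called, for the 4 genes with the smallest p in each comparison, and for Ccnb1, Cdk1, Plk1, Aurkb, Cdc20 and Mki67 whatever their values. Of other lists, called genes are named, and a few uncalled ones (Stag2, Cdc23) as well as Plk4, Pttg1 and KNSL5 were singled out after their values were seen. Alternatives covered the filter, background, normalisation, probe choice, arrays fitted, replicate block, variance trend and each array left out.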

Additional observations from a re-analysis of the deposited data

How the results depend on the processing

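The count of mitosis genes called stayed at 0 under all alternatives run in CL25 against O2ACH iPS and in O2ACH iPS against ESC. In CL25 against ESC it was 1, Mki67, without background correction (adjusted p = 0.0378), with an offset of 50 (0.0381), with median centring (0.047), with the replicate block (0.0386) and with a variance trend (0.0419), and 0 under the others. Leaving out each array in turn gave counts of 0 to 0 in all 3 comparisons. Under it the median difference ran from -0.1616 to -0.0646 in CL25 against O2ACH iPS, from -0.1985 to -0.1255 in CL25 against ESC, and from -0.0418 to -0.0183 in O2ACH iPS against ESC. Larger moves came from scaling and filtering. Median centring turned the first median to 0.0058 (-0.1076 as reported) and put the third at -0.1565 (-0.0374 as reported). The all-gene medians moved with it, from -0.0164 to 0.0698 in the first comparison and from -0.0026 to -0.0892 in the third. Without the detection filter the second median was -0.0655 (-0.1881 as reported). The all-gene median there was -0.0028 (-0.0194 as reported). Over all genes the counts called were 283, 527 and 102. They ran from 35 (without O2ACH iPS replicate 1), 74 (without CL25 replicate 2) and 14 (without O2ACH iPS replicate 1) to 649, 913 and 272, all with the replicate block. The labels do not say that equal replicate numbers mark a shared batch. Deviations of same-numbered arrays from their line means correlated at 0.298, 0.183 and 0.323, with only 2 numbers to a comparison, so the numbers were not taken as pairs. Values for the 12 genes given array by array and Dlgap5 under the alternatives were set against those reported. Of them, 5 became called (Mki67) and 4 lost their call (Dlgap5). A further 49 stayed uncalled but moved by at least the gene's residual standard deviation. The other 563 kept their side of the threshold, and the uncalled ones among them moved by less than that, whatever their sign. Cdc20 in CL25 against ESC kept its sign in 12 of 16 alternatives. With 2 arrays a line, a difference under about 0.448 on the log2 scale, the median half-width of the intervals, was not resolved. Genes near background, such as Cdc25b and Kif20a, have only weak signal. The authors' own value table was not run.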
